A study of Mus musculus with 6 samples.

Results

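Epithelial keratins were examined in mouse ovarian tumours grown with and without estradiol (E2). The 10 genes, Krt5, Krt7, Krt8, Krt14, Krt17, Krt18, Krt19, Krt20, Krt23 and Krt80, were chosen by symbol out of 19937 genes with a single-gene probe set. Each had 1 probe set, so all 10 were measured and no choice between probe sets arose. The comparison asked how E2 altered tumours of MASE2 cells, and the series title singles out Greb1.

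There were 6 arrays, 1 per tumour, 3 from SCID mice implanted with placebo pellets and 3 from SCID mice implanted with E2 pellets when the cells were injected. MASE2 cells are ascites cells of an E2-treated tgCAG-LS-TAg mouse, in which adenoviral Cre, injected into the ovarian bursa, switches on the SV40 large and small T antigens in the ovarian surface epithelium. All 6 tumours therefore share this oncogene and this earlier exposure of the donor mouse to E2. The labels give no age, no day of collection (tumours were taken when the mice became unwell) and no statement on whether MASE2 is a single clone. The SCID hosts have no working T or B cells of their own but keep their own stroma, vessels, peritoneal lining and myeloid cells, whose RNA is also in a bulk tumour sample. In such bulk samples fewer cells of a type and less RNA per cell cannot be told apart.

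Keratins are the intermediate filaments of epithelial cells. A type I keratin pairs with a type II keratin, and the pairs assemble into filaments that are anchored at desmosomes and hemidesmosomes. Krt8 and Krt18 form the basic pair of simple epithelia, Krt7 and Krt19 accompany them in glandular, ovarian surface and mesothelial cells, Krt5 and Krt14 form the pair of basal cells in layered epithelia, and Krt20 is the type I keratin of the differentiated gut lining.

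Placebo replicate 3 stood apart. Its Pearson r with the other arrays over 19937 genes, which are not independent replicates, was 0.857 to 0.865, against 0.96 to 0.994 among the rest. It held the highest value of 27.9% of all genes and the lowest value of 33.0%. All 20 measured markers of intestinal epithelium were highest there, with a list median of 10.70 on the RMA log2 scale against 4.35 to 4.66 on the other 5 arrays. The log2 of their summed intensity was 15.06 there, 8.81 and 8.88 in the other placebo tumours and 8.73 to 9.07 with E2. Results on keratins are given with and without this array. RMA values are log2 intensities. They carry no detection call here, so the lower quartile of genes on each array, 4.22 to 4.39, is given as a mark of dim signal, and no level is compared between genes.

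Promoter stretches of Krt7, Krt8, Krt18 and Krt20 are shown because these genes mark the patterns described here. Krt7 was lower in every E2 tumour, Krt8 and Krt18 were not separated by treatment, and Krt20 was high in placebo replicate 3 only. Each is the 250 bases before the RefSeq gene start in GRCm38.p6, written 5′ to 3′ on the gene's strand. RefSeq promoters were matched for 7 of the 10 keratins. The Krt14 entry begins at a start inside the gene and was not used, which left 6. Capitals mark GC boxes (GGGCGG, bound by Sp and KLF factors) and half-sites of the oestrogen response element (AGGTCA), searched on both strands.
Krt7, chr15:101412153-101412402, + strand: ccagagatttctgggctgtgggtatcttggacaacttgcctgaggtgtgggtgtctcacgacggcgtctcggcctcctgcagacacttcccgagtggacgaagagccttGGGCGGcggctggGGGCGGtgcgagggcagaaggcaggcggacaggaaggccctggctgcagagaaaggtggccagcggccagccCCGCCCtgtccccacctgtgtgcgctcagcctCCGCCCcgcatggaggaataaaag
Krt8, chr15:102004343-102004592, - strand: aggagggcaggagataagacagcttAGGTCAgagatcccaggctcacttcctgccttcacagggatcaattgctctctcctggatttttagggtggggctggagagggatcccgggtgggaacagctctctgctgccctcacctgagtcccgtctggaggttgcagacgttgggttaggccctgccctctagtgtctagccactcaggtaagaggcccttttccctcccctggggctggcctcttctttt
Krt18, chr15:102027966-102028215, + strand: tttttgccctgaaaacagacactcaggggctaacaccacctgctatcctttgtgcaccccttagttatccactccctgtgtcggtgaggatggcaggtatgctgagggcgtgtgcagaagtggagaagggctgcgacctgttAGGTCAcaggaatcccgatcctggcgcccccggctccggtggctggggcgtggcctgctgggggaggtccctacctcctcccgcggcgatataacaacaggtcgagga
Krt20, chr11:99438154-99438403, - strand: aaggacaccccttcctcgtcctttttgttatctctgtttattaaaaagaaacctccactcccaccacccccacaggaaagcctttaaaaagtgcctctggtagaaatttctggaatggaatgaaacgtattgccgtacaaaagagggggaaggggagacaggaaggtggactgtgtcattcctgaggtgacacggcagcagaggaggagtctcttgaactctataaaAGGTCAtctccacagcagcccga

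The Krt7 stretch held 4 GC boxes, 24 to 141 bases before the start, and 66.0% G or C, against a median of 52.4% over 32851 promoter stretches of the same length. A GC box occurred in 32.7% of those stretches and in no other keratin of the 6. Krt8, Krt18 and Krt20 each held 1 half-site, beginning 225, 108 and 23 bases before the start, and 14.02% of all stretches held one. The full oestrogen response element, GGTCA and its reverse complement with any 3 bases between, present in 0.0639% of all stretches, and the AP-1 site TGANTCA, in 6.75%, were in 0 of the 6 keratin stretches. These matches describe letters in a short window only.

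Krt7, a type II keratin of glandular and mesothelial cells, was the 1 keratin of 10 that passed the test on all 6 arrays, and it fell. It measured 7.36, 7.99 and 7.67 in placebo replicates 1, 2 and 3, and 5.34, 5.29 and 5.30 in E2 replicates 1, 2 and 3. Every placebo tumour lay above every E2 tumour, and placebo replicate 3 lay between the other placebo tumours. The group means were 7.67 ± 0.32 and 5.31 ± 0.03 (SD, n = 3 each). Krt7 fell by 2.36 (log2, SE 0.165), with a 95% confidence interval of -2.77 to -1.96. This was 5.15-fold lower with E2, at a limma adjusted p of 0.00445. Over all genes 0.326% passed in this direction and 1.06% in the other. An exact two-sided permutation test of Krt7 alone gave p = 0.10, the smallest that 3 arrays against 3 allow. The adjusted p was 0.0581 without E2 replicate 1, with a change of -2.38, and 0.000216 without placebo replicate 3, with a change of -2.36 (limma).

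**Figure D1:**
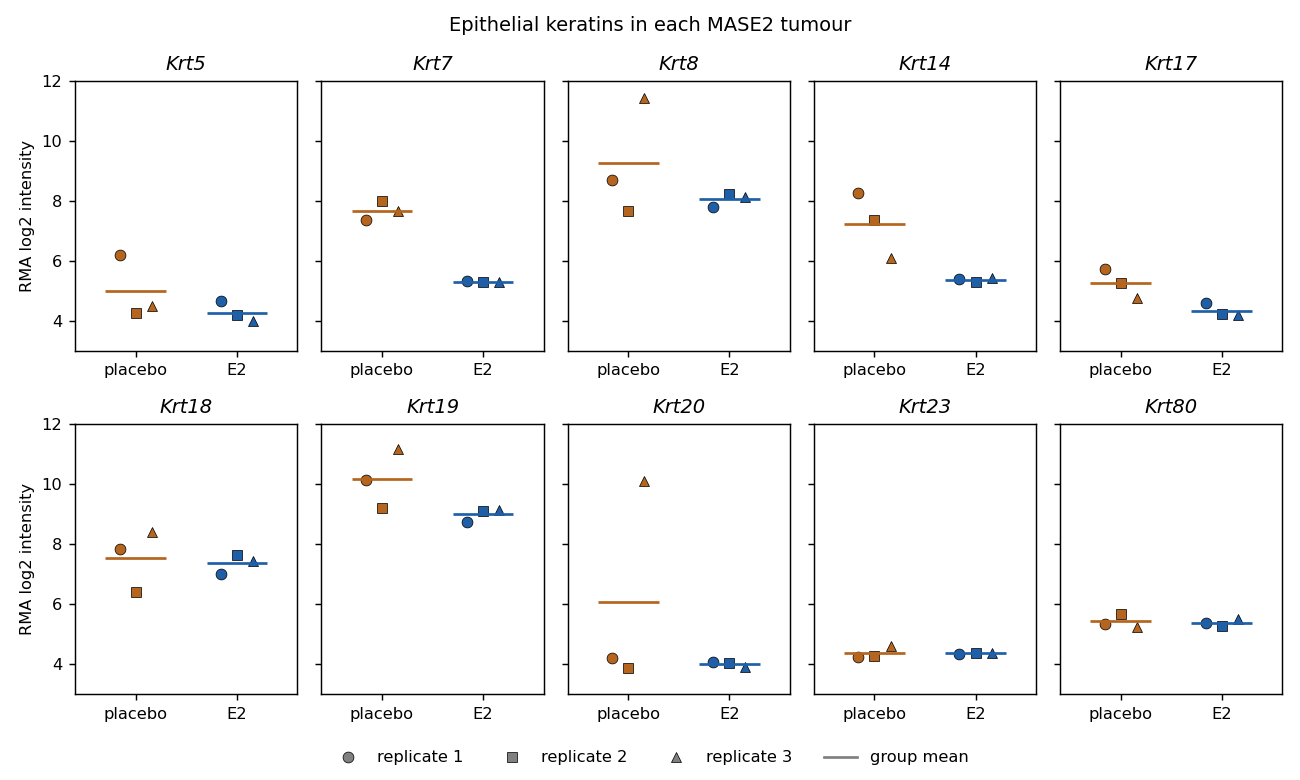
RMA log2 intensity of each keratin (y axis) in each placebo and E2 tumour (x axis), with symbols for replicate 1, 2 and 3 and a line at each group mean. Krt7 lies at 7.36 to 7.99 with placebo and 5.29 to 5.34 with E2, and Krt20 is high in placebo replicate 3 only, at 10.11.

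The basal and stress keratins Krt14 and Krt17 separated the groups completely, with the E2 values below, but neither passed on 6 arrays. Krt14, the type I partner of Krt5, measured 8.26, 7.37 and 6.08 in placebo replicates 1 to 3 and 5.38, 5.30 and 5.43 in E2 replicates 1 to 3. Placebo replicate 3 was the lowest placebo tumour and still lay above the highest E2 tumour. Its log2 change was -1.86 (SE 0.52, limma adjusted p = 0.166). On the 5 arrays that leave out placebo replicate 3, Krt14 fell by 2.44 (log2, SE 0.23, limma adjusted p = 0.000684), or 5.43-fold. The 95% confidence interval was -2.96 to -1.92.

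Krt17, a type I keratin of hair follicles and of injured epithelia, measured 5.74, 5.27 and 4.76 with placebo and 4.58, 4.22 and 4.19 with E2. The order of the placebo tumours was that of Krt14, and E2 replicates 2 and 3 were under the quartile mark. Its log2 change was -0.93 (SE 0.26, limma adjusted p = 0.169), and without placebo replicate 3 it fell by 1.18 on the log2 scale (SE 0.17, limma adjusted p = 0.00464). Probes of Krt14, Krt16 and Krt17, which are close in sequence, may share signal, so their separate values are uncertain. Krt16 itself lay at 4.11 to 4.27 with placebo and 3.85 to 4.39 with E2.

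Krt5, the type II partner of Krt14, measured 6.18, 4.25 and 4.50 with placebo and 4.66, 4.18 and 3.99 with E2. Placebo replicate 1 was high and the other values overlapped, with 3 of the 6 below the lower quartile. The log2 change was -0.70 (SE 0.52, limma adjusted p = 0.541), and -0.94 without placebo replicate 3 (adjusted p = 0.282). Without placebo replicate 1 it was -0.10.

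Krt8 and Krt18, the pair of simple epithelia, did not separate the groups. Krt8 measured 8.70, 7.65 and 11.42 with placebo and 7.80, 8.23 and 8.14 with E2. Placebo replicate 3 lay far above the other 5 tumours, and placebo replicate 2 was the lowest. The log2 change was -1.20 (SE 0.92, limma adjusted p = 0.550) on 6 arrays and -0.12 without placebo replicate 3 (95% confidence interval -0.76 to 0.53). Krt18 measured 7.84, 6.40 and 8.41 with placebo and 6.99, 7.63 and 7.45 with E2. Its E2 values lay inside the placebo range, and placebo replicate 2 was again lowest. The log2 change was -0.19 (SE 0.51, limma adjusted p = 0.876), and it changed sign to 0.24 without placebo replicate 3 (95% confidence interval -0.63 to 1.11).

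Krt19, a type I keratin without a tail domain that is found in simple epithelia and mesothelium, lay lower in every E2 tumour by a narrow margin. It measured 10.15, 9.20 and 11.19 with placebo and 8.74, 9.09 and 9.14 with E2. Placebo replicate 2, the lowest of its group, was only just above the highest E2 tumour, and placebo replicate 3 was highest. The log2 change was -1.19 (SE 0.48, limma adjusted p = 0.299). It was -0.68 without placebo replicate 3 (SE 0.26, 95% confidence interval -1.28 to -0.09, limma adjusted p = 0.144).

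Krt20, the gut keratin, was high in a single tumour. It measured 4.19, 3.87 and 10.11 in placebo replicates 1, 2 and 3, and 4.07, 4.03 and 3.91 with E2. The other 5 values were dim, under the quartile mark of their arrays. The log2 change of -2.06 (SE 1.65, limma adjusted p = 0.565) rested on placebo replicate 3, and without it the change was -0.03 (95% confidence interval -0.30 to 0.25).

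Krt23, a type I keratin known from liver injury and colon tumours, and Krt80, a type II keratin of many epithelia, differed little. Krt23 lay at 4.24 to 4.61 with placebo and 4.32 to 4.37 with E2, close to the lower quartile of genes, and was highest in placebo replicate 3. Krt80 lay at 5.24 to 5.68 with placebo and 5.25 to 5.51 with E2. The log2 changes were -0.01 (95% confidence interval -0.31 to 0.28) for Krt23 and -0.04 (-0.39 to 0.31) for Krt80, and both turned positive under median centring and repeated quantile normalization.

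In all, 1 of the 10 keratins fell, 0 rose and 9 did not pass over all 6 arrays in limma, and 4 lay lower and 0 higher at an unadjusted p under 0.05, beside 6.16% and 10.4% of all genes. Without placebo replicate 3, 3 fell (Krt7, Krt14 and Krt17) and 0 rose, beside 5.21% of all genes that fell and 6.4% that rose on those 5 arrays. Every E2 value lay below every placebo value for 4 of the 10 (Krt7, Krt14, Krt17 and Krt19), against 11.4% of all genes, and above for 0, against 14.9%. With placebo replicate 3 left out these counts were 4, against 20.4% of all genes, and 1 (Krt23), against 21.2%. When arrays were weighted by their quality in limma, 3 keratins fell and 0 rose, beside 3.81% and 5.15% of all genes. Leaving out E2 replicate 1, 0 keratins passed, beside 0.0% of all genes that fell and 0.155% that rose, and 3 lay lower and 0 higher at an unadjusted limma p under 0.05, beside 4.6% and 7.74% of all genes. With the replicate number as a block 0 passed, beside 0.0% and 0.0502%, and 4 lay lower and 0 higher at an unadjusted limma p under 0.05, beside 4.44% and 7.64%. The median log2 change was -1.06 for the 10 keratins and -0.01 over all genes. These medians were, without placebo replicate 3, -0.41 and -0.01. Placebo replicate 3 held the highest value of 5 of the 10, Krt8, Krt18, Krt19, Krt20 and Krt23. The spread among E2 tumours was small for Krt7, 0.06 log2 from lowest to highest, and reached 0.67 for Krt5.

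**Figure D2:**
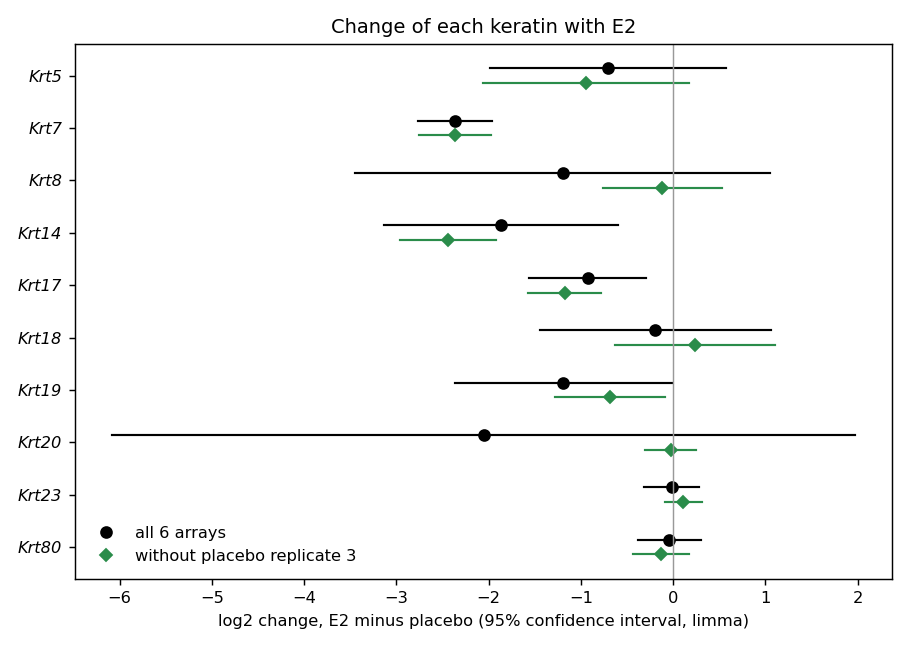
Log2 change, E2 minus placebo (x axis), of each keratin (y axis) with its 95% confidence interval from limma, on all 6 arrays (circles) and without placebo replicate 3 (diamonds). Krt7 stays at -2.36 in both fits, Krt14 moves from -1.86 to -2.44, and Krt20 moves from -2.06 to -0.03.

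Partner keratins were set against each other within each array, which shows only whether they changed unequally. The difference Krt8 minus Krt18 was 0.87, 1.24 and 3.01 log2 units in placebo replicates 1 to 3 and 0.81, 0.59 and 0.69 with E2. All E2 tumours lay below all placebo tumours, and placebo replicate 3 lay far above the rest. The group difference was -1.01 (exact two-sided permutation p = 0.10, adjusted p = 0.20 over 4 pairs), and -0.36 without placebo replicate 3. Krt5 minus Krt14 was -2.08, -3.12 and -1.58 with placebo and -0.73, -1.11 and -1.45 with E2. The shift was 1.16 in the other direction, again without overlap (exact permutation p = 0.10, adjusted p = 0.20), and 0.73 without placebo replicate 2. Since Krt5 was under the quartile mark on 3 arrays, this difference gives no exact shift of the pair. Krt7 minus Krt19 shifted by -1.18 and overlapped (exact permutation p = 0.20, adjusted p = 0.267), since placebo replicate 3 held -3.52 against -3.40 to -3.84 with E2. It was -0.53 without placebo replicate 2 and -1.68 without placebo replicate 3. Krt20 minus Krt8 shifted by -0.86 (exact permutation p = 0.70, adjusted p = 0.70), with Krt20 under the quartile mark on 5 arrays, and by 0.090 without placebo replicate 3. With 3 arrays against 3 the exact permutation test could not go below p = 0.10 for any pair.

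The other 42 measured keratins, mostly of hair and of layered epithelia, served as the family background. In limma 0 of them passed in either direction, 4 lay lower and 0 higher at an unadjusted p under 0.05 (beside 6.16% and 10.4% of all genes), and their log2 changes ran from -0.345 (Krt33b) to 0.11 (Krt26), with a median of -0.10. Of the 42, 18 were under the quartile mark on all 6 arrays. Leaving out placebo replicate 3, again 0 passed and 5 lay lower at an unadjusted limma p under 0.05 (beside 11.5% of all genes lower and 13.5% higher), with changes from -0.32 to 0.10.

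In the RefSeq order of the measured keratins, Krt7 lies between Krt80 and Krt87 on chromosome 15, whose changes were -0.04 and -0.18. Krt14 and Krt17 lie on either side of Krt16 on chromosome 11, whose change was -0.04. Krt8 and Krt18 are neighbours at the end of the chromosome 15 group. Krt87 was also lower in every E2 tumour than in every placebo tumour, without passing the test. It was 1 of 10 among the 42 other keratins with this order, against 11.4% of all genes. Only 1 of the 42 had the reverse order, against 14.9%. The median over all probe sets was 4.92 to 4.97 on the placebo arrays and 4.84 to 4.90 on the E2 arrays. Median centring moved the genes at an unadjusted limma p under 0.05 from 1229 to 697 lower and from 2069 to 3118 higher. The part of this array offset in the order of the 42 keratins was not tested.

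**Figure D3:**
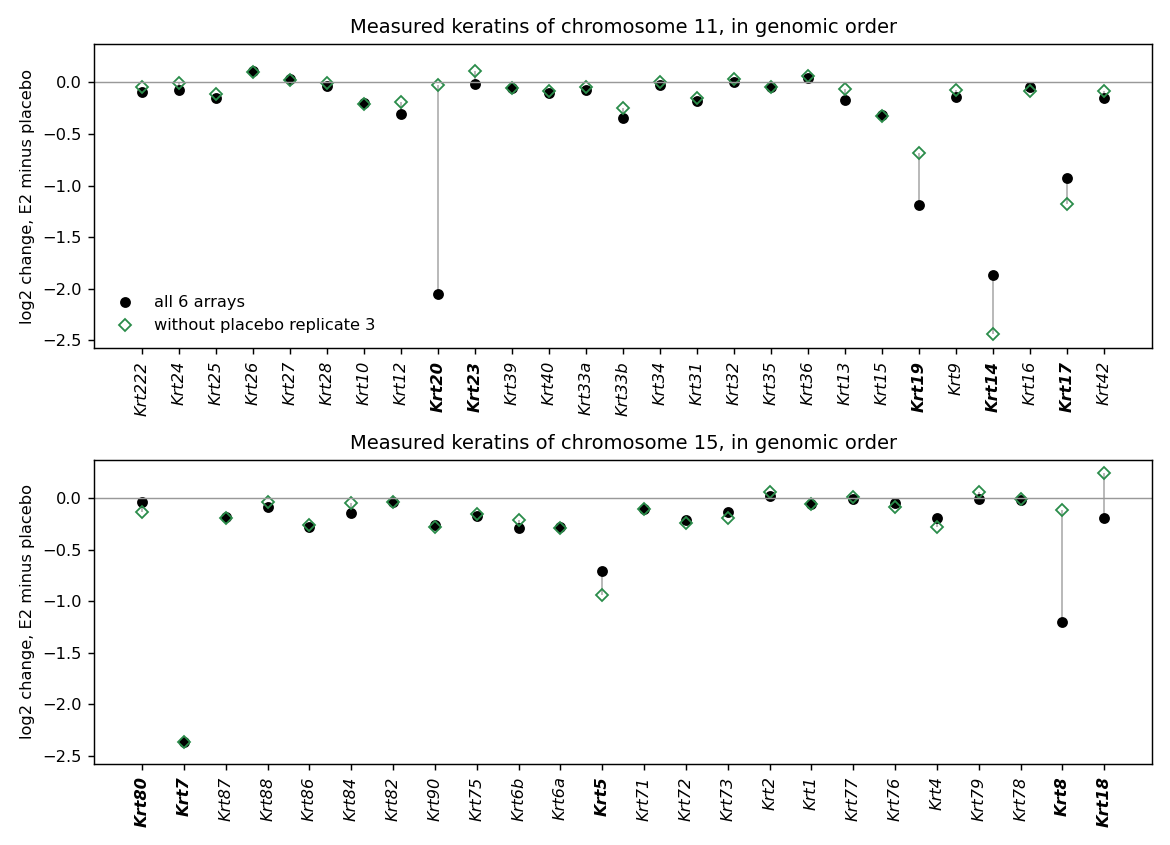
Log2 change, E2 minus placebo (y axis), of the measured keratins on chromosomes 11 and 15 in genomic order (x axis, members in bold), on all 6 arrays (filled circles) and without placebo replicate 3 (open diamonds). Krt7 at -2.36 stands between neighbours at -0.04 and -0.18, and Krt16 at -0.04 stands between Krt14 and Krt17.

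Of 19 genes that anchor keratin filaments, 0 passed the limma threshold in either direction on 6 arrays. At an unadjusted p under 0.05, 2 lay lower and 0 higher (beside 6.16% and 10.4% of all genes), and the list median was -0.39. Dsp, which encodes desmoplakin, the link between keratins and the desmosome, measured 7.20, 5.50 and 8.67 with placebo and 4.65, 4.53 and 4.71 with E2. All E2 tumours lay below all placebo tumours, and the order of the placebo tumours was that of Krt8, Krt18 and Krt19. The log2 change of Dsp was -2.49 (SE 0.75, limma adjusted p = 0.187). The log2 change was -0.83 for Pkp2 (limma adjusted p = 0.171) and -0.62 for Pkp1 (adjusted p = 0.303), both plakophilins of the desmosomal plaque. Without placebo replicate 3, 3 of the 19 fell, Dsp (log2 change -1.72, limma adjusted p = 0.0317), Pkp2 (-0.57, adjusted p = 0.0209) and the desmosomal protein gene Perp (-0.74, adjusted p = 0.0126). Itga6, the hemidesmosome integrin alpha 6, was the 1 that rose (1.12, adjusted p = 0.00135), and the list median was -0.15. Over all genes 5.21% fell and 6.4% rose on those 5 arrays. Of the 19, 14 were highest in placebo replicate 3.

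Epithelial transcription and splicing regulators and their mesenchymal counterparts were tested as a list of 20. In limma 0 passed on 6 arrays, and 1 lay lower and 1 higher at an unadjusted p under 0.05 (beside 6.16% and 10.4% of all genes). Snai2, a repressor of epithelial genes, had a log2 change of 1.11 (limma adjusted p = 0.237), and its values were 5.56, 6.25 and 4.66 with placebo and 6.52, 6.59 and 6.69 with E2. The change was -0.29 for Snai1 (adjusted p = 0.287) and -1.52 for the epithelial splicing factor Esrp1 (adjusted p = 0.390). Without placebo replicate 3 it was 0.69 for Snai2 (limma adjusted p = 0.0512) and -0.74 for Esrp1 (adjusted p = 0.356), and without placebo replicate 2 it was -2.37 for Esrp1. Leaving out placebo replicate 3, 1 of the 20 fell, beside 5.21% of all genes. It was Grhl1, a grainyhead factor of epithelia (log2 change -0.53, limma adjusted p = 0.0487). Of the 20, 12 were highest in placebo replicate 3.

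Other intermediate filament genes gave 0 calls among 13 in limma on 6 arrays and 0 at an unadjusted p under 0.05, with a median log2 change of -0.09. The members of smallest p were Synm, encoding synemin (-0.55, adjusted p = 0.348), Lmna, encoding lamins A and C (-0.29, adjusted p = 0.420), and Nefm (-0.15, adjusted p = 0.507). Vim, the filament of mesenchymal cells, lay at 9.31 to 10.29 with placebo and 9.44 to 9.77 with E2. Without placebo replicate 3, 2 of the 13 fell, Vim (-0.53, limma adjusted p = 0.0388) and Prph (-0.73, adjusted p = 0.00913), and 0 rose. Over all genes 5.21% fell and 6.4% rose.

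Lists of cell type markers were read beside the keratins, and their part in the keratin results was not tested. Marker signal from MASE2 cells and from host cells cannot be told apart in these bulk samples. In the intestinal list the defining genes Vil1, Cdh17, Fabp2 and Zg16 measured 10.84, 10.68, 10.79 and 11.42 in placebo replicate 3 and 3.64 to 4.77 on the other arrays. In limma 0 of the 20 passed, also 0 at an unadjusted p under 0.05, with a list median of -2.07 on 6 arrays and -0.01 without placebo replicate 3. Cdh17 and Fabp2 were under the quartile mark on the other 5 arrays, Zg16 on 2 of them and Vil1 on 0. Reg3b and Reg3g, also on the list and named after their values were seen, measured 5.84 and 6.05 in E2 replicate 3. Simple epithelium markers were highest in placebo replicate 3 for 12 of 13 genes, with list medians of 5.57, 4.99 and 8.46 in placebo replicates 1 to 3 and 4.89 to 5.08 with E2. The log2 of their summed intensity was 9.47 to 12.52 with placebo and 9.68 to 9.94 with E2. Cdh1, encoding E-cadherin, measured 7.16, 5.29 and 9.56 with placebo and 4.78, 5.08 and 5.02 with E2 (log2 change -2.38, limma adjusted p = 0.317). Epcam had a log2 change of -1.69 (adjusted p = 0.457) and St14 one of -1.48 (adjusted p = 0.462). Without placebo replicate 3 the change was -1.27 for Cdh1, -0.52 for Epcam and -0.43 for St14 (limma adjusted p from 0.123 to 0.343). On those 5 arrays Spint1 of the same list rose (log2 change 1.47, limma adjusted p = 0.000863) and 0 of the 13 fell. Over all genes 6.4% rose and 5.21% fell there. The list median was 0.03 on those arrays and -0.85 on all 6. On all 6 arrays 0 of the 13 passed in limma, also 0 at an unadjusted p under 0.05. In placebo replicates 1 and 2 the higher tumour for Cdh1, Epcam, Dsp and Krt5, Krt8, Krt14, Krt17, Krt18, Krt19 and Krt20 was replicate 1. For Krt7, Krt80 (5.35 and 5.68) and, barely, Krt23 (4.24 and 4.25) it was replicate 2.

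Mesothelial markers were highest in placebo replicate 2 for 8 of 14 genes, in replicate 1 for 5 and in replicate 3 for 1 (Cldn15). The list median was 8.31, 8.05 and 6.36 in placebo replicates 1 to 3 and 5.34 to 5.86 with E2, and the log2 of their summed intensity was 12.29, 12.35 and 10.66 with placebo and 9.86 to 10.21 with E2. Of the 14 genes 1 fell on 6 arrays, the claudin gene Cldn15 (log2 change -2.55, limma adjusted p = 0.0262), beside 0.326% of all genes. That call was lost without placebo replicate 2 and without each E2 array (adjusted p from 0.0633 to 0.152). In every E2 tumour 10 of the 14 lay below every placebo value, against 11.4% of all genes. At an unadjusted limma p under 0.05, 10 lay lower and 0 higher, beside 6.16% and 10.4% of all genes. Lrrn4, a marker of mesothelial cells, measured 9.28, 8.58 and 6.60 with placebo and 5.24, 4.70 and 5.10 with E2 (log2 change -3.14, adjusted p = 0.0959). Upk3b, another, measured 9.01, 9.99 and 6.51 with placebo and 5.85, 5.40 and 6.005 with E2 (log2 change -2.75, adjusted p = 0.201). Msln, encoding mesothelin, had a log2 change of -1.28 (adjusted p = 0.185), and Wt1 one of -0.23 (adjusted p = 0.856). Wt1 and Rspo1 of this list are also on the gonadal list. Leaving out placebo replicate 3, 12 of the 14 fell and 0 rose, beside 5.21% and 6.4% of all genes, and the list median was -2.10.

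**Figure D4:**
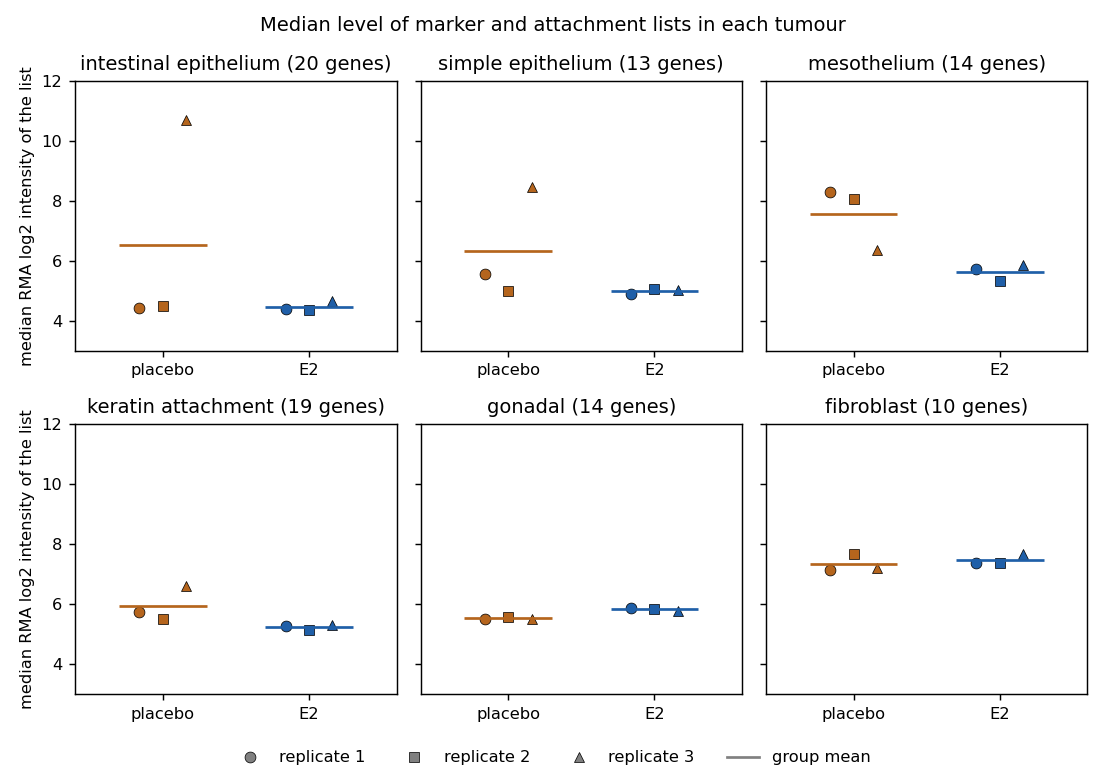
Median RMA log2 intensity of each gene list (y axis) in each placebo and E2 tumour (x axis), with symbols for replicate 1, 2 and 3 and a line at each group mean. The intestinal median is 10.70 in placebo replicate 3 and 4.35 to 4.66 elsewhere, and the mesothelial median is 6.36 to 8.31 with placebo and 5.34 to 5.86 with E2.

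Markers of further cell types were read in the same way. Urothelial markers gave 0 calls among 5 in limma on 6 arrays, also 0 at an unadjusted p under 0.05, and Upk2 lay at 5.17 to 5.43 on all arrays. Without placebo replicate 3, 1 of the 5 fell, Sytl2 (log2 change -0.38, limma adjusted p = 0.0309), beside 5.21% of all genes. Of 10 markers of squamous epithelium 0 passed in limma on 6 arrays. At an unadjusted p under 0.05, 1 lay lower and 1 higher (beside 6.16% and 10.4% of all genes). Ivl, encoding involucrin, lay at 3.81 to 4.20, while Sprr1a, a cornified envelope gene, measured 4.93 to 5.81 with placebo and 6.80 to 7.82 with E2 (log2 change 1.84, adjusted p = 0.0683). Without placebo replicate 3, Sprr1a rose (2.05, limma adjusted p = 0.00382). On those arrays 2 of the 10 fell, Serpinb5 (-1.06, adjusted p = 0.0420) and Dmkn (-0.35, adjusted p = 0.0493). Over all genes 5.21% fell and 6.4% rose there. Among 8 pancreatic acinar markers 1 rose, beside 1.06% of all genes. It was Cela3b, an elastase, with a log2 change of 1.38 (limma adjusted p = 0.0347). That call was lost when any array but placebo replicate 3 was left out (adjusted p from 0.0622 to 0.182). Cpa1 lay at 4.13 to 4.45. Of 14 gonadal genes 3 rose and 0 fell on 6 arrays in limma, beside 1.06% and 0.326% of all genes. The 3 were Inha (log2 change 3.81, adjusted p = 0.000223), Nr5a1 (2.45, adjusted p = 0.00731) and Gata4 (1.61, adjusted p = 0.0136). Rspo1 of this list was lower in every E2 tumour (-1.53, adjusted p = 0.142), and Foxl2 (-0.01) and Pax8 (-0.19) differed little. Such changes do not check the labelled ovarian origin, which all 6 tumours share. Leaving out placebo replicate 3, 5 of the 14 rose and 3 fell (Wt1, Nr2f2 and Rspo1), beside 6.4% and 5.21% of all genes. The call of Gata4 was lost when any E2 array was left out (adjusted p from 0.0712 to 0.1001) and that of Nr5a1 without E2 replicate 3 (0.0674). Wt1 lay at 6.37 to 8.29. Fibroblast markers gave 0 calls among 10, with 2 lower and 1 higher at an unadjusted limma p under 0.05 (beside 6.16% and 10.4% of all genes). Leaving out placebo replicate 3, 5 of the 10 fell and 1 rose, beside 5.21% and 6.4% of all genes. The median log2 change went from -0.49 to -0.76. Their medians lay at 7.14 to 7.67 with placebo and 7.35 to 7.66 with E2.

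Profiles most like those of 4 keratins were found by the root mean square difference of mean-centred log2 values over the 6 arrays, among named genes outside the keratin family. This is a description of arrays that share the treatment and placebo replicate 3. Nearest to Krt7 were H2-Ea (0.19 log2 units), Cd74 (0.21) and H2-Aa (0.29), all of class II antigen presentation. H2-Ea measured 6.61, 7.12 and 7.11 with placebo and 4.53, 4.76 and 4.97 with E2, with placebo replicate 3 inside the placebo range as for Krt7. Nearest to Krt19 were Serpinb5 (0.19), Mpp1 (0.21) and Myo5b (0.23). Serpinb5, the epithelial serpin maspin, measured 5.43, 4.34 and 6.27 with placebo and 3.72, 3.89 and 3.88 with E2. Nearest to Krt8 were St14 (0.20), an epithelial membrane protease gene, Mme (0.21) and Ly6d (0.22). Nearest to Krt20 were Vil1 (0.063), which encodes the brush border protein villin, Defa24 (0.084), a defensin gene of the gut, and Clca4a (0.12). The nearest profiles to Krt14, looked up after its values were seen, were Ppfibp2 (0.084), Bnc1 (0.21) and Podxl (0.26), of which the last 2 are on the mesothelial list. Mpeg1 and Ms4a7, which are not on that list, came next and were almost as near (0.283 each).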

How the data were processed

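Biotin-labelled RNA of 6 MASE2 tumours was measured on whole-transcript arrays, per the labels. RMA is the method named in the submitters' processing notes, and the authors deposited its log2 values for each probe set. Its software version and the genome build were not given in those sources. The series text calls the tumours biological replicates but does not say whether each came from its own culture, so p-values reflect variation among these 3 tumours per group. RMA equalises arrays and compresses changes near background, though the array medians over all probe sets still ran from 4.84 to 4.97. Of 34760 probe sets, 21640 had 1 gene symbol in the platform annotation, 1321 had several and 11799 are unnamed here. The single-gene probe set with the highest mean stood for a gene, leaving 19937 genes, of which none was filtered out. Groups and replicate numbers came from the sample titles. The number of arrays limits the precision.

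Group means were tested in limma 3.58.1 (lmFit, then eBayes; R 4.3.3), two-sided, with p adjusted by Benjamini and Hochberg over all genes at a threshold of 0.05. The step was tested on simulated data. Pairs of keratins were compared by exact permutation. The keratins, gene lists and tests were chosen with earlier results of these data known. Named genes were the keratins, the other keratins past the threshold (none) and the 3 of highest mean (not ranked in the text), up to 4 called members of each list or the 3 of smallest p, defining markers, and the 3 nearest profiles of 4 keratins. Perp, Itga6, Grhl1, Vim, Prph, Reg3b, Reg3g, Spint1, Sytl2, Dmkn, Rspo1, Nr2f2, Foxl2, Pax8, Krt16, Krt26 and Krt87 were named after their values were seen. Promoters came from RefSeq, GRCm38.p6. The alternatives were leaving out each array, a replicate block, a filter at the 25th percentile, the mean of probe sets, median centring, repeated quantile normalization, a trended and robust prior, array weights and an adjusted p under 0.10. The lower quartile as a mark of dim signal was chosen after the values were seen.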

Additional observations from a re-analysis of the deposited data

How the results depend on the processing

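Krt7 was lower with E2 under all 14 alternatives and passed under 12 of them. Among these, the mean of probe sets left Krt7 unchanged, since it had 1 probe set, and an adjusted p under 0.10 reused the main fit. Neither is a separate check of Krt7. The limma adjusted p was 0.0481 without E2 replicate 2 and 0.0497 without E2 replicate 3, close to the threshold. Without E2 replicate 1 (adjusted p = 0.0581) and with the replicate number as a block (adjusted p = 0.0704), 0 keratins passed, while 3 and 4 of them lay lower at an unadjusted limma p under 0.05. Leaving out each array in turn gave 0 to 3 keratins that fell, a median keratin change of -1.37 to -0.41, and 31 to 1276 genes higher and 0 to 1039 lower. Without E2 replicate 1, 0 genes were lower, but 917 were at an unadjusted p under 0.05. Array weights gave 3 keratins that fell, Krt7, Krt14 (adjusted p = 0.00457) and Krt17 (0.0139), a median of -0.59, and 1026 genes higher and 760 lower. The weight of placebo replicate 3 was 0.149. Median centring gave 363 genes higher, and an adjusted p under 0.10 gave 543 higher and 193 lower. The replicate block gave 10 genes higher and 0 lower, with 886 lower at an unadjusted p under 0.05. Deviations of same-numbered samples correlated at -0.182 to -0.0287, so the numbers were not taken as a pairing, and no sample correlated best with its own number. The block also ended the calls of Cldn15, Cela3b, Nr5a1, Gata4, H2-Ea, Cd74 and H2-Aa (adjusted p from 0.0514 to 0.150), while Inha passed (0.0397).

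Signs turned for Krt18, Krt23, Krt80, Wt1, Vil1 and the pair Krt20 minus Krt8. With 1 array left out the log2 changes ran from -0.765 to 0.24 for Krt18, -0.0788 to 0.11 for Krt23, -0.131 to 0.0885 for Krt80, -0.868 to 0.089 for Wt1 and -3.10 to 0.040 for Vil1. Krt18 was at 0.24 without placebo replicate 3 and 0.12 with array weights. Krt23 was at 0.11 without placebo replicate 3, 0.00058 without E2 replicate 1, 0.069 with median centring, 0.064 with repeated quantile normalization and 0.086 with array weights. Krt80 was at 0.089 without placebo replicate 2, 0.022 without E2 replicate 2, 0.044 with median centring and 0.0061 with repeated quantile normalization. Wt1 was at 0.086 and 0.089 without placebo replicates 1 and 2, and Vil1 at 0.040 without placebo replicate 3. Krt20 minus Krt8 shifted by -1.51 to 0.090 with an array left out, and by 0.090 without placebo replicate 3. The cause of these shifts was not tested. Dim signal limits Krt5, Krt17, Krt20 and Krt23, each below the lower quartile of genes on at least 1 array.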
